A study of Homo sapiens with 12 samples.

Results

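The heterogeneous nuclear ribonucleoproteins (hnRNPs) examined here were HNRNPA1, HNRNPA2B1, HNRNPC, HNRNPD, HNRNPF, HNRNPH1, HNRNPK, HNRNPL, HNRNPM and HNRNPU, 10 of the 57820 genes counted. They were taken by name, by pairing the Ensembl gene IDs of the files with gene symbols. No measured value entered this rule, but the list was made with earlier results of these data known. The same gene IDs held 222 of the 56092 splicing events deposited for the whole experiment. All 10 genes and 180 of the 222 events held enough reads to be tested. RNA came from AsPC-1, an established human pancreatic cancer cell line. The 4 groups were normoxia siControl (21% O2, a scrambled siRNA), normoxia siARNT (21% O2, an siRNA against ARNT), hypoxia siControl (1% O2) and hypoxia siARNT (1% O2), each with 3 libraries named A, B and C. All 12 libraries came from transfected cells, so no group was free of siRNA and transfection reagent. Hypoxia lasted 24 h and RNA was taken 48 h after transfection. ARNT is the partner that the oxygen-sensitive HIF alpha subunits need to bind DNA, and the study asked which transcript isoforms depend on HIF.

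hnRNPs coat nascent RNA in the nucleus. Most of them bind through RNA recognition motifs, or KH domains in hnRNP K, and many act on splice site choice, often as repressors of exons and as competitors of SR proteins. Several of their own transcripts are alternatively spliced, which gives protein isoforms of different length or transcripts removed by nonsense-mediated decay (NMD), a pathway that degrades RNA with an early stop codon. HNRNPA1, HNRNPA2B1 and HNRNPC encode the core proteins of the hnRNP particle. HNRNPF and HNRNPH1 encode proteins that bind runs of G. hnRNP K binds C-rich RNA and hnRNP L binds CA repeats. hnRNP D, also called AUF1, binds AU-rich elements in messenger RNA, hnRNP M binds GU-rich RNA, and hnRNP U, also called SAF-A, binds both RNA and the nuclear scaffold.

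Alternative coding segments of 3 genes are printed because the junction reads on either side of them carry the results on isoforms. Each line gives the segment in capitals with 12 bases of the spliced GENCODE 29 transcript on either side in lower case, read 5′ to 3′ on the strand of the gene. The segments lie in coding exons at chr14:21230958-21230996 on the minus strand (HNRNPC), chr7:26197831-26197866 on the minus strand (HNRNPA2B1) and chr19:8483158-8483211 on the plus strand (HNRNPM) of GRCh38. They encode 13, 12 and 18 residues. Each was found in GENCODE 29 by the lengths of the exons and introns of the deposited event, since the event coordinates are in another build, which no file header names.
HNRNPC segment of the C2 form: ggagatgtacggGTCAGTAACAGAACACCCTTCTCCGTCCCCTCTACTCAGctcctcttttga
HNRNPA2B1 exon of the B1 form: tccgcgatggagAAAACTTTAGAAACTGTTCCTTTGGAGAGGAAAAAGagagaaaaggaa
HNRNPM exon: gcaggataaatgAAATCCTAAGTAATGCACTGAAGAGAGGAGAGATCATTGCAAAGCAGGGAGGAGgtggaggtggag

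The libraries held 38.53 to 84.34 M gene counts. ARNT, the target of the siRNA, stood at 60.7 to 72.2 CPM (gene counts scaled to a common library size) in the 6 siControl libraries and at 12.8 to 16.0 CPM in the 6 siARNT libraries. All 6 epithelial markers looked for exceeded 1 CPM in every library, and their summed level was 3704 to 4228 CPM in normoxia siControl, 5217 to 8089 in normoxia siARNT, 3781 to 4798 in hypoxia siControl and 4111 to 5695 in hypoxia siARNT. The epithelial sum was thus highest in normoxia siARNT, and its part in the results was not tested. The 11 markers of blood, endothelial, stromal, islet and acinar cells that had a symbol in the files summed to 1.44 to 2.79 CPM in a library. CD3E and INS were at 0 throughout. Replicate libraries come from wells of 1 cell line, so the p-values below measure the spread between these wells. In bulk RNA such as this, fewer cells with a transcript and less of it per cell cannot be told apart.

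All 10 hnRNP genes were strongly expressed, from 176.6 CPM (the lowest library of HNRNPL) to 1262 CPM (the highest of HNRNPA2B1). To compare genes, CPM was divided by the median length of the principal protein-coding transcripts of each gene in GENCODE 29. In normoxia siControl HNRNPA2B1 led with 477 ± 8.95 CPM per kb (SD, n = 3 here and below), followed by HNRNPC (319 ± 4.03), HNRNPK (279 ± 10.3), HNRNPA1 (221 ± 3.94) and HNRNPH1 (144 ± 6.25). HNRNPU (115 ± 3.61), HNRNPF (103 ± 4.11), HNRNPD (94.3 ± 5.12), HNRNPM (88.6 ± 1.62) and HNRNPL (83.1 ± 0.147) came below them on the same scale. The libraries of HNRNPD and HNRNPM overlapped, and no other neighbours in this order did. The order rests on the transcript chosen: the HNRNPA1 model has 4121 nt, and a shorter one would move this gene up. Sequence-like pseudogenes of 9 of the 10 genes were counted separately, and their summed CPM was at most 1.67% of that of the parent gene in any library. Reads set aside as not unique made up 14.45% to 15.14% per library, and those shared with such copies would be among them.

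**Figure D1:**
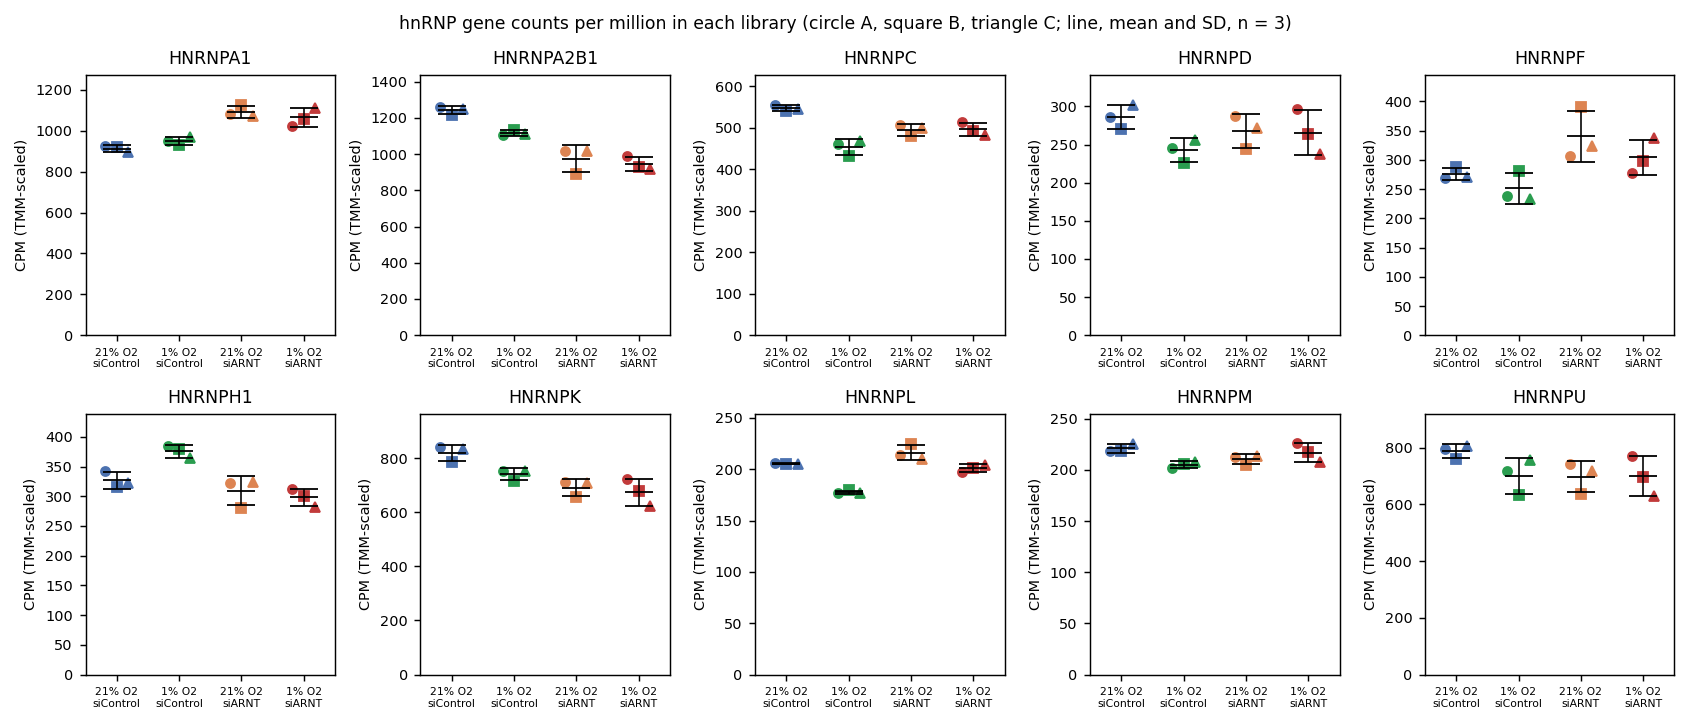
CPM (y axis, TMM-scaled, from 0) of the 10 hnRNP genes in each of the 12 libraries, with 1 panel per gene; the x axis gives the oxygen and siRNA groups, points are libraries, and the lines show the mean and SD of 3 libraries. HNRNPA2B1 is lower in all 6 siARNT libraries than in any siControl library, and HNRNPA1 is higher in all 6.

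The changes were small. In size, the median log2 fold change of the 10 genes was 0.165 for hypoxia in siControl against 0.246 over all 16999 genes tested, and 0.155 against 0.252 for siARNT in normoxia. Hypoxia in siControl called 3 of 10 (edgeR quasi-likelihood test, Benjamini-Hochberg adjusted p under 0.05), while it called 25.3% of all genes tested. Of the 3, 1 rose and 2 fell, against 10.4% and 14.9% of all genes. For hypoxia in siARNT the count was 0 of 10 against 4.09% of all genes, with 1 of the 10 at an unadjusted p under 0.05 and 0 of 10 by DESeq2. siARNT in normoxia called 3 of 10 against 20.2%, with 1 higher and 2 lower (9.42% and 10.8% of all genes). siARNT in hypoxia called 4 of 10 against 29.1%, with 2 higher and 2 lower (14.4% and 14.7%). The interaction, defined as the siARNT hypoxia effect less the siControl hypoxia effect, called 0 of 10 against 4.69%, with 2 at an unadjusted p under 0.05 and 1 by DESeq2. The groups did not overlap in 9 of 10 genes for hypoxia in siControl, where 46.8% of all genes had no overlap, in 1 of 10 for hypoxia in siARNT (22.2%), in 8 of 10 for siARNT in normoxia (46.5%) and in 5 of 10 for siARNT in hypoxia (40.3%). The comparisons share libraries: both hypoxia comparisons and both siRNA comparisons draw on the same 4 groups. A GC correction, used below as an alternative, called more of all genes. In the order above it called 6973, 3518, 5357, 7710 and 2909 of 16535 genes. Without it the counts were 4299, 696, 3431, 4948 and 797 of 16999.

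**Figure D2:**
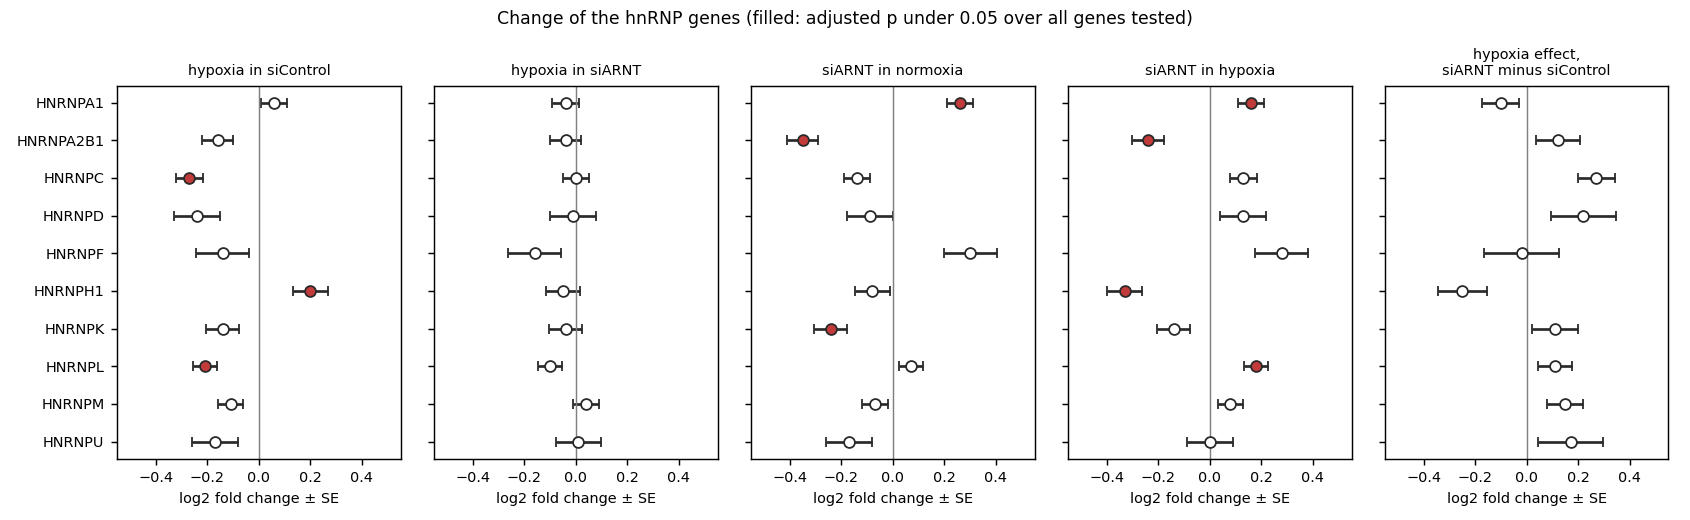
Log2 fold change (x axis) with its standard error for each hnRNP gene (y axis) in the 4 comparisons and for the difference between the 2 hypoxia changes; filled points passed an adjusted p under 0.05 over all genes tested. HNRNPA1 lies above 0 and HNRNPA2B1 below 0 in both siRNA comparisons, and all 10 genes lie within 0.16 of 0 for hypoxia in siARNT.

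Among the core particle genes, HNRNPA2B1 fell and HNRNPA1 rose with siARNT at both oxygen levels. HNRNPA2B1 (ENSG00000122566.16), whose protein also reads m6A-marked RNA and sorts microRNAs, stood at 1262, 1216 and 1248 CPM in normoxia siControl and at 1014, 888 and 1018 CPM in normoxia siARNT. In hypoxia it stood at 1103, 1133 and 1111 CPM in siControl and at 989, 931 and 919 CPM in siARNT. Every siARNT library was therefore below every siControl library, whatever the oxygen. The log2 fold change with siARNT in normoxia was -0.35 (SE 0.0608, edgeR adjusted p 0.00239). The hypoxia value was -0.24 (SE 0.0608, adjusted p 0.0118). With a GC correction the normoxia value was -0.19 and was still called. Without hypoxia siARNT library B the hypoxia value had an adjusted p of 0.0517, and with total count scaling 0.0553. HNRNPA2B1 was also lower in hypoxia siControl than in normoxia siControl without overlap, but by -0.16 and with an adjusted p of 0.0846.

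HNRNPA1 (ENSG00000135486.13), a repressor of many exons, moved the other way. It stood at 925, 919 and 894 CPM in normoxia siControl and at 1083, 1127 and 1071 CPM in normoxia siARNT, with no overlap. The hypoxia libraries held 952, 930 and 969 CPM in siControl and 1022, 1060 and 1114 CPM in siARNT, again without overlap. It rose with siARNT by 0.26 on the log2 scale in normoxia (SE 0.0506, adjusted p 0.00466). The rise in hypoxia was 0.16 (SE 0.0506, adjusted p 0.029). The normoxia value was 0.40 with a GC correction and the hypoxia value 0.25 with total count scaling. The normoxia value missed the threshold without normoxia siControl library C (adjusted p 0.0505). The hypoxia value missed it without any 1 of 5 of the 6 libraries compared (adjusted p 0.0728 to 0.131), the exception being hypoxia siARNT library A. Hypoxia changed HNRNPA1 by 0.06 in siControl and -0.04 in siARNT, neither of them called.

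HNRNPC (ENSG00000092199.13), which binds U-rich tracts as a tetramer and competes with the splicing factor U2AF2 for 3′ splice sites, was the hnRNP gene with the largest hypoxia change in siControl. Its libraries held 555, 542 and 546 CPM in normoxia siControl and 460, 433 and 470 CPM in hypoxia siControl, and the groups were well apart. It fell by 0.27 on the log2 scale (SE 0.0514, adjusted p 0.00243), and this call held in all 15 alternatives run. In siARNT, normoxia (506, 480 and 500 CPM) and hypoxia (514, 493 and 484 CPM) overlapped, with a log2 fold change of 0.00 (SE 0.0513). The difference between the hypoxia changes was 0.27 (SE 0.0726) and had an adjusted p of 0.0555, just above the threshold. That difference was called by DESeq2 (adjusted p 0.0463), with total count scaling (0.00766), with a GC correction (0.0381) and without hypoxia siARNT library C (0.0418). The GC correction made it smaller, 0.16.

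Of the G-run binders, HNRNPH1 passed the test in both comparisons that involve hypoxia siControl, and HNRNPF in none by edgeR as fitted here. HNRNPH1 (ENSG00000169045.13) stood at 343, 316 and 323 CPM in normoxia siControl and at 384, 380 and 364 CPM in hypoxia siControl. It was at 322, 281 and 324 CPM in normoxia siARNT and at 312, 300 and 282 CPM in hypoxia siARNT, so the hypoxia siControl libraries were above all 9 others. Its rise with hypoxia in siControl was 0.20 (SE 0.0672, adjusted p 0.0484), and leaving out any 1 of the 6 libraries ended the call (adjusted p 0.0604 to 0.159). The fall with siARNT in hypoxia was larger, -0.33 (SE 0.0673, adjusted p 0.00287), and was called in all 14 alternatives. The interaction was -0.25 with an adjusted p of 0.159, and 0.00648 with a GC correction. HNRNPF (ENSG00000169813.12) stood at 269, 289 and 270 CPM in normoxia siControl and at 307, 390 and 324 CPM in normoxia siARNT, without overlap. Its log2 fold change with siARNT was 0.30 in normoxia (adjusted p 0.0578) and 0.28 in hypoxia (adjusted p 0.0635), and neither was called. Without normoxia siARNT library A the normoxia value was called (adjusted p 0.0386), and without hypoxia siControl library B (0.0348) or hypoxia siARNT library A (0.031) the hypoxia value was. The normoxia value was also called by DESeq2 (0.0336), with no filter (0.0149) and with a GC correction (0.0314), and the hypoxia value with total count scaling (0.0337), no filter (0.0319) and a GC correction (0.0474). A block for the replicate letter gave a call for both (adjusted p 0.0251 and 0.024). HNRNPH1, HNRNPH2 and HNRNPF are close in sequence, so a few of their reads may not be assigned with certainty.

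HNRNPL and HNRNPK encode the CA-repeat and C-rich RNA binders. HNRNPL (ENSG00000104824.12) had close replicates in the siControl groups: 205.7, 205.0 and 205.5 CPM in normoxia siControl against 176.6, 179.4 and 176.6 CPM in hypoxia siControl. It fell by 0.21 (SE 0.0462, adjusted p 0.00566). In hypoxia siARNT it stood at 197.5, 201.7 and 204.6 CPM, above all hypoxia siControl libraries and below all of those of normoxia siControl. The rise with siARNT in hypoxia was 0.18 (SE 0.0463, adjusted p 0.0115) and missed the threshold without hypoxia siControl library A (adjusted p 0.0543). Testing genes without a filter on low counts also ended both calls (adjusted p 0.117 and 0.178). HNRNPK (ENSG00000165119.14) stood at 841, 785 and 833 CPM in normoxia siControl and at 711, 656 and 708 CPM in normoxia siARNT. The groups were apart, and it fell by 0.24 (SE 0.0642, adjusted p 0.0217). That call ended without normoxia siControl library A (adjusted p 0.0767), normoxia siControl library C (0.0758) or normoxia siARNT library B (0.069). With a GC correction the value was -0.09 (adjusted p 0.081), and with no filter on low counts the adjusted p was 0.0914. In hypoxia the HNRNPK libraries of siControl (755, 716 and 755 CPM) and siARNT (723, 679 and 623 CPM) overlapped.

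HNRNPD, HNRNPM and HNRNPU were called in none of the 5 comparisons. HNRNPD (ENSG00000138668.14) stood at 286, 270 and 301 CPM in normoxia siControl and 245, 226 and 257 CPM in hypoxia siControl, apart but with a log2 fold change of -0.24 (SE 0.0891) and an adjusted p of 0.0731. With a GC correction it was called (adjusted p 0.0249), as in a fit to the 6 libraries alone (0.0126). HNRNPM (ENSG00000099783.7) ranged over only 202 to 226 CPM in the 12 libraries, with log2 fold changes between -0.11 and 0.08 in the 4 comparisons of groups and an interaction of 0.15. With total count scaling it was called for hypoxia in siControl (-0.13, adjusted p 0.0321) and for siARNT in hypoxia (0.16, adjusted p 0.00967). HNRNPU (ENSG00000153187.12) ranged from 631 to 808 CPM, and its log2 fold changes lay between -0.17 and 0.01 in the comparisons of groups, with an interaction of 0.17. The library preparation was stranded, but how strand was used in counting is not given in the sources used here, so reads of antisense or overlapping genes such as HNRNPU-AS1 may be included.

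Other genes of the pathway were read from lists by name. Of 17 further hnRNP family genes, hypoxia in siControl called 6, of which 5 fell and 1 rose, with a median log2 fold change of -0.06 against 0.02 over all genes. This comparison called 25.3% of all genes tested, and the others, in the order in which they follow, 4.09%, 20.2% and 29.1%. HNRNPAB, a relative of HNRNPD, fell by 0.65 (SE 0.0515, adjusted p 5.63e-06), SYNCRIP by 0.30 (adjusted p 0.0287) and HNRNPR by 0.28 (adjusted p 0.00544). The SYNCRIP call ended without normoxia siControl A or C or hypoxia siControl A or B (adjusted p 0.069 to 0.13). Whichever library was left out, the count for hypoxia in siControl was 2 to 4. Hypoxia in siARNT called 2 of 17, both lower: HNRNPA0 (-0.44, adjusted p 0.0277) and HNRNPAB (-0.32, adjusted p 0.0073). The HNRNPA0 call held only when hypoxia siARNT C was the library left out (otherwise adjusted p 0.0539 to 0.107). siARNT in normoxia called 4 of 17, of which 3 rose and 1 fell, led by HNRNPH2 (-0.38, adjusted p 0.000986) and HNRNPUL1 (0.34, adjusted p 0.0128). Here the count was 1 without normoxia siControl A or C, 2 without normoxia siControl B or normoxia siARNT B, and 3 without either other library. HNRNPUL1 was lost without normoxia siControl A or C (adjusted p 0.0711 and 0.0627). With a GC correction both were still called, HNRNPH2 at -0.23 and HNRNPUL1 at 0.16. siARNT in hypoxia called 8 of 17, 5 up and 3 down, led by HNRNPAB (0.49, adjusted p 2.9e-05), PCBP2 (-0.35, adjusted p 0.000714), which binds poly(C), and HNRNPH2 (-0.34, adjusted p 0.000851). The medians for the siRNA comparisons were 0.03 and 0.09, against 0.01 and 0.02 over all genes.

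Of 7 genes for nuclear import of hnRNPs (transportins), arginine methylation and hnRNP phosphorylation, hypoxia in siControl called 2, beside 25.3% of all genes. MKNK1, a kinase that phosphorylates hnRNP A1, rose by 0.31 (SE 0.0687, adjusted p 0.00566), and PRMT5, an arginine methyltransferase, fell by 0.37 (SE 0.0563, adjusted p 0.000539). siARNT in hypoxia called 3 of 7, beside 29.1% of all genes, with MKNK1 lower (-0.53, adjusted p 0.000135) and TNPO1 (0.32, adjusted p 0.0301) and PRMT5 (0.23, adjusted p 0.00883) higher. The TNPO1 call held only when hypoxia siARNT C was the library left out (otherwise adjusted p 0.0509 to 0.114). The other 3 comparisons called 0 of 7, beside 4.09% (hypoxia in siARNT), 20.2% (siARNT in normoxia) and 4.69% (interaction) of all genes. For siARNT in normoxia the count was 1 without any 1 of the normoxia siARNT libraries. It was 1 with DESeq2, which called 4221 of 16999 genes, and 3 with a GC correction, which called 5357 of 16535. Of 10 NMD factors, SMG8 fell in each of the 4 comparisons of groups (-0.35 and -0.27 with hypoxia, -0.30 and -0.22 with siARNT). SMG6, the endonuclease of the pathway, rose with hypoxia in siControl by 0.36 (adjusted p 0.0278), and the other 8 factors were not called in any comparison. Hypoxia in siControl thus called 2 of 10 and hypoxia in siARNT 1, beside 25.3% and 4.09% of all genes. The siRNA called 1 of 10 in normoxia and 1 in hypoxia, beside 20.2% and 29.1%. SMG6 was lost without normoxia siControl A or C or hypoxia siControl A or B (adjusted p 0.0561 to 0.103). SMG8 was lost for hypoxia in siARNT without any 1 of its 6 libraries (0.0669 to 0.162), and for siARNT in hypoxia without any of them but hypoxia siControl B (0.052 to 0.081) and with total count scaling (-0.14, adjusted p 0.099). With a GC correction the SMG8 value for siARNT in normoxia was -0.19.

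The 222 deposited events of the hnRNP genes comprised 84 exon skips, 21 skips of several exons, 4 pairs of mutually exclusive exons, 47 alternative 3′ splice sites, 31 alternative 5′ splice sites and 35 retained introns. HNRNPA2B1 held 71 of them, HNRNPH1 54, HNRNPA1 29, HNRNPC 18, HNRNPD 16, HNRNPM 13, HNRNPK 8, HNRNPU 6, HNRNPL 5 and HNRNPF 2. For each event the share of the first form among junction reads is given as percent spliced in (PSI). The inclusion and exclusion counts of each event were tested together in each library, so the level of the gene cancels. Of the 222 events, 57 had both junction forms in GENCODE 29. Events of 1 gene share junctions and are not independent of each other.

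In the fit used here (edgeR, all 12 libraries, no block for the replicate letter), splicing events of the hnRNP genes passed the test in both siRNA comparisons. They passed it in neither hypoxia comparison, and whether these differ was not tested. The pattern is that of this fit, and other fits, described at the end, gave other counts. Of 151 junction events tested, siARNT in normoxia called 5 (edgeR, adjusted p under 0.05), against 0.323% of all 34093 junction events tested, and siARNT in hypoxia called 2, against 0.238%. Hypoxia in siControl called 0 of 151 (7 at an unadjusted p under 0.05) against 0.0939%, hypoxia in siARNT 0 (3) against 0.0205%, and the interaction 0 (9, where 4.48% of all events had such a p) against 0.00587%. limma on log2 odds called 0 of the 151 in these 3 comparisons too, and also 0 in both siRNA comparisons. Over all 34093 junction events limma called 6 for siARNT in normoxia and 20 for siARNT in hypoxia. At an unadjusted p under 0.05 there were 21 of 151 events for siARNT in normoxia (13.9%, against 8.73% of all junction events) and 15 for siARNT in hypoxia (9.93%, against 6.65%). Of these, HNRNPA2B1 held 13 and 11. The difference in PSI was under 5 points in 133, 135, 124 and 128 of the 151 events for the oxygen contrast under siControl and under siARNT and for the siRNA contrast in normoxia and in hypoxia. None of 29 retained introns tested was called by limma in any comparison. Of all retained introns tested, limma called 0.138% and 0% for hypoxia in siControl and siARNT, 0.0276% and 0.193% for siARNT in normoxia and hypoxia, and 0.0276% for the interaction. Among those of the hnRNP genes the smallest adjusted p was 0.163, in HNRNPA2B1.

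HNRNPC was the one hnRNP gene in which an event called in both siRNA comparisons altered the protein. An alternative 5′ splice site adds the 39-nt segment printed above, which turns the C1 form into C2. The files place both 5′ sites on chromosome 14 with the exon ending at 21699156 for C1 and at 21699117 for C2. Between 1698 and 4094 reads of a library crossed these junctions. C1 took 72.9%, 72.3% and 73.2% of them in normoxia siControl and 73.1%, 72.8% and 71.1% in hypoxia siControl. With siARNT it took 67.4%, 67.7% and 66.6% in normoxia and 66.3%, 68.2% and 66.3% in hypoxia. All 6 siARNT libraries were below all 6 siControl libraries, by 5.6 points in the mean in normoxia and 5.4 in hypoxia. The log2 change of the odds was -0.39 at 21% O2 (SE 0.0571, adjusted p 0.0173). At 1% O2 it was -0.38 (SE 0.0673, adjusted p 0.0499). Hypoxia itself moved the share by -0.5 points in siControl and -0.3 in siARNT. The normoxia call ended without normoxia siControl library A (adjusted p 0.113) or C (0.0729), or normoxia siARNT library A (0.0841) or C (0.0571). The hypoxia call ended without any 1 of its 6 libraries (0.0633 to 0.301). Both also ended with limma on log2 odds (adjusted p 0.594 in normoxia and 0.536 in hypoxia). A trended negative binomial dispersion ended them too (0.951 and 0.956). Of 15 alternatives, 8 kept the normoxia call and 3 the hypoxia call.

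**Figure D3:**
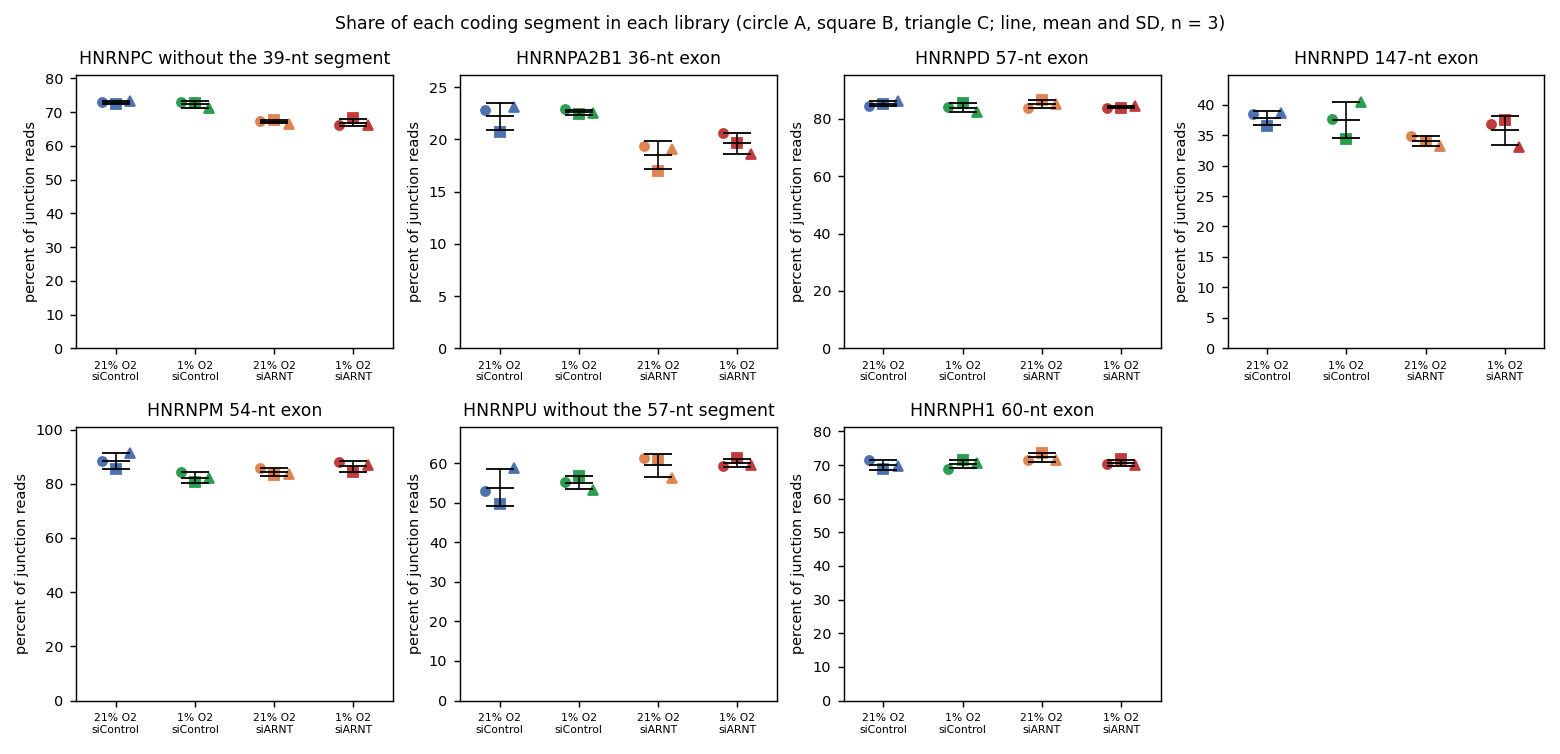
Share of junction reads (y axis, percent, from 0) for 7 alternative coding segments of hnRNP genes in each library, with 1 panel per segment; the x axis gives the groups, points are libraries and lines are the mean and SD of 3. The HNRNPC share without the 39-nt segment lies between 71.1% and 73.2% in siControl and between 66.3% and 68.2% in siARNT, while the HNRNPD 57-nt exon stays between 82.3% and 86.5% in all 12 libraries.

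The other coding segments shown were not called. They were picked as known or annotated protein isoforms after their values had been seen. The 36-nt exon that makes hnRNP B1 out of A2 was included at 22.8%, 20.7% and 23.1% in normoxia siControl, 22.9%, 22.4% and 22.5% in hypoxia siControl, 19.4%, 17.0% and 19.1% in normoxia siARNT and 20.6%, 19.7% and 18.6% in hypoxia siARNT. All siARNT libraries were again below all siControl libraries, but these shares average unequal junctions of the exon. On each junction alone hypoxia siARNT overlapped normoxia siControl, while at the same oxygen level the siRNA groups stayed apart. On one, normoxia siControl B had 275 reads against 1681 skips and hypoxia siARNT B 197 against 1171. On the other, normoxia siControl B had 601 against 1681 and hypoxia siARNT A 475 against 1313. The log2 change of the odds with siARNT was -0.34 at 21% O2 (SE 0.0757, adjusted p 0.115). At 1% O2 it was -0.26 (SE 0.0918, adjusted p 0.583). With events limited to those with at least 240 reads of the rarer form, an alternative added after the data were seen, the normoxia value was called (adjusted p 0.0429).

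The 54-nt exon of HNRNPM was included at 88.4%, 85.6% and 91.3% in normoxia siControl and at 84.3%, 80.5% and 82.0% in hypoxia siControl, without overlap. In siARNT it was at 85.9%, 83.1% and 83.8% in normoxia and at 87.9%, 84.3% and 87.0% in hypoxia, so the order of the oxygen levels was the other way round. These shares average unequal junctions of the exon. In normoxia siControl 1210, 699 and 834 reads lay on the upstream junction and 238, 136 and 158 on the downstream one, against 95, 70 and 47 that skipped the exon. On the downstream junction alone the siControl groups overlapped: 136 against 70 skips in normoxia B, and 205 against 99 in hypoxia A. Neither hypoxia in siControl (adjusted p 0.469) nor the interaction (log2 change of the odds 0.96, SE 0.279, unadjusted p 0.00531, adjusted p 1.0) was called. HNRNPD has 2 alternative coding exons, which give the AUF1 protein isoforms. The 57-nt exon was included at 85.3 ± 1.03%, 83.9 ± 1.63%, 85.2 ± 1.34% and 84.1 ± 0.267% in normoxia siControl, hypoxia siControl, normoxia siARNT and hypoxia siARNT. The 147-nt exon was at 37.9 ± 1.17%, 37.5 ± 2.97%, 34.0 ± 0.786% and 35.9 ± 2.37% in the same order. In HNRNPU the form without a 57-nt coding segment took 53.8 ± 4.70% in normoxia siControl and 59.4 ± 2.82% in normoxia siARNT, on 92 to 250 reads a library, and was not called (adjusted p 0.591).

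The other 4 calls with siARNT in normoxia all lay at the 3′ end of HNRNPA2B1, downstream of 1 exon of 83 nt (chr7:26192495-26192577 in GRCh38; 26232115 to 26232197 in the files). In 3 transcripts of GENCODE 29 this exon ends the coding sequence, 59 nt of it being coding, and in 2 of these 3 a 156-nt intron and a terminal exon of 3′ untranslated region (UTR) follow. From the same donor, further introns reached acceptors inside the terminal exon of HNRNPA2B1-201, which has 2412 nt. The terminal exon of HNRNPA2B1-202 has 495 nt and ends before these acceptors. The intron of 1366 nt removes 1210 nt more than the short one and is found in an NMD-class transcript, HNRNPA2B1-203. The intron of 2034 nt removes 1878 nt more and was not found in GENCODE 29. Both leave the coding sequence as it is and shorten the 3′ UTR of HNRNPA2B1-201.

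The 2034-nt intron took 5.42%, 6.38% and 6.32% of the reads on it and the 156-nt intron in normoxia siControl, and 11.2%, 11.7% and 11.3% in normoxia siARNT. In hypoxia it took 6.06%, 6.14% and 6.31% in siControl and 9.14%, 10.3% and 11.2% in siARNT. The siRNA groups were far apart and the oxygen levels were not. The log2 change of the odds with siARNT was 1.02 at 21% O2 (SE 0.102, adjusted p 0.0035). At 1% O2 it was 0.78 (SE 0.124, adjusted p 0.0324). The normoxia call held with each library left out. The hypoxia call ended without any hypoxia siControl library or without hypoxia siARNT library B or C (adjusted p 0.0744 to 0.152). Both calls ended with limma on log2 odds (adjusted p 0.208 in normoxia and 0.341 in hypoxia). A trended negative binomial dispersion ended them too (0.655 and 0.803). Of 15 alternatives, 13 kept the normoxia call and 5 the hypoxia call. A second event sets the same 2034-nt junction against a chain that uses the 156-nt intron and then exons of 38 and 136 nt before that acceptor. The share of the chain fell from 85.1 ± 1.24% to 75.4 ± 0.754% with siARNT in normoxia (log2 change of the odds -0.91, SE 0.111, adjusted p 0.0086). That call ended without normoxia siControl library A (adjusted p 0.0524), with limma on log2 odds (0.263) and with the trended dispersion (0.751). Only 0 to 6 reads of a library joined the 38-nt exon to the 136-nt exon, so nearly all reads of the chain were of its outer junctions, and the chain itself was hardly seen.

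The 1366-nt intron took 5.23%, 5.01% and 4.32% in normoxia siControl and 7.55%, 7.05% and 7.32% in normoxia siARNT against the 156-nt intron (log2 change of the odds 0.63, SE 0.105, adjusted p 0.0321). The hypoxia groups were closer, at 5.84 ± 0.136% in siControl and 6.76 ± 0.271% in siARNT (adjusted p 0.82). The remaining call is a skip of the 38-nt exon by the same 1366-nt junction, counted against the 156-nt intron and the scarce junction after the 38-nt exon. On that scarce junction alone its direction turned (1.08 in place of -0.63, adjusted p 0.943). The loss of 1 library, whichever it was, ended both calls (adjusted p 0.0668 to 0.171). So did limma on log2 odds (0.52 and 0.447) and the trended dispersion (0.858 for both). All 6 acceptors joined to this donor held 1961 to 4778 reads a library. Over them the 156-nt intron took 89.2 ± 0.507% in normoxia siControl, 88.1 ± 0.114% in hypoxia siControl, 81.1 ± 1.34% in normoxia siARNT and 82.6 ± 0.532% in hypoxia siARNT. They include an 827-nt intron with 118 reads in normoxia siARNT A, 69 in hypoxia siARNT A and 0 in every other library. The 156-nt share was 79.6%, 82.0% and 81.8% in normoxia siARNT A, B and C. The level of the whole gene and the share of its long 3′ UTR introns both separated the siRNAs. Their relation was not tested.

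**Figure D4:**
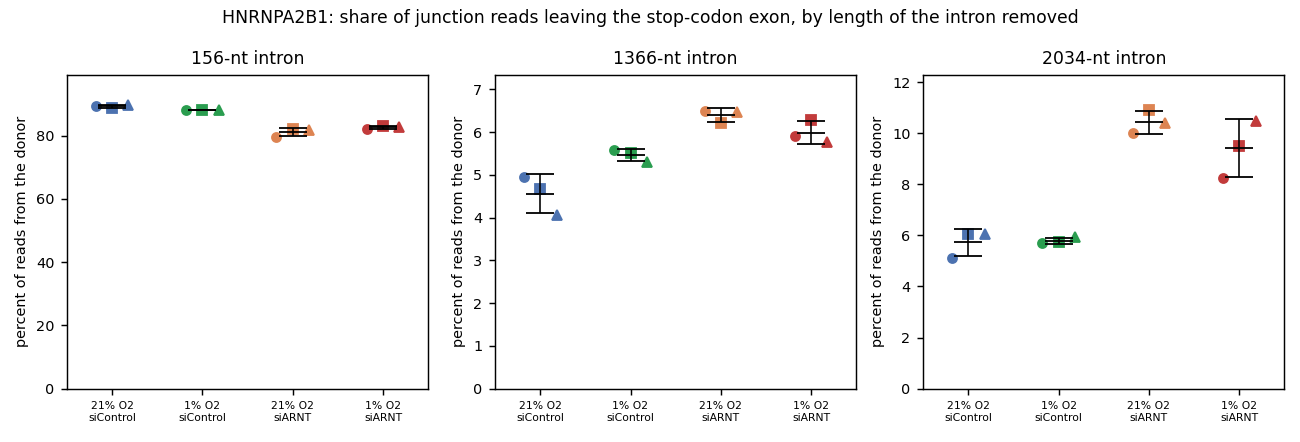
HNRNPA2B1: percent of the junction reads leaving the 83-nt exon (y axis, from 0) that removed an intron of 156, 1366 or 2034 nt, in each library; the x axis gives the groups, points are libraries and lines are the mean and SD of 3. The 2034-nt share averages 5.74% and 5.79% in the siControl groups and 10.5% and 9.41% in the siARNT groups. The reads leaving the exon include those of an 827-nt intron seen only in normoxia siARNT A and hypoxia siARNT A.

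In 10 tested junction events 1 form lay only in NMD-class transcripts and the other in protein-coding ones: 4 in HNRNPH1, 3 in HNRNPD and 1 each in HNRNPA2B1, HNRNPK and HNRNPL. Apart from the 1366-nt intron of HNRNPA2B1 none was called. The 70-nt exon of HNRNPL was in 2.21 ± 0.398%, 2.63 ± 0.286%, 1.89 ± 0.367% and 1.62 ± 0.375% of its junction reads in normoxia siControl, hypoxia siControl, normoxia siARNT and hypoxia siARNT. The 107-nt exon of HNRNPD was at 1.05 ± 0.192%, 1.90 ± 0.476%, 1.39 ± 0.388% and 1.66 ± 0.344% in the same order. In HNRNPH1 the 134-nt exon was at 7.48 ± 1.98%, 7.81 ± 2.59%, 5.81 ± 0.691% and 6.76 ± 1.05%. The NMD-class form was not always the rarer one. The 179-nt exon of HNRNPH1, on a mean of 180 reads, was at 55.4 ± 7.62%, 57.4 ± 0.883%, 59.4 ± 3.65% and 66.8 ± 9.04% in the same order. An alternative 5′ splice site of HNRNPH1, shifted by 30 nt, gave the NMD-class form at 11.8 ± 2.05%, 5.52 ± 1.97%, 9.97 ± 3.28% and 10.1 ± 2.45% in that order. Its libraries did not overlap between the siControl groups, on 167 to 489 reads, but hypoxia in siControl had an unadjusted p of 0.0156 and an adjusted p of 0.681 (edgeR). NMD would remove such transcripts where it acts on them, and these shares are of the RNA present. The class is that of the annotation, and decay was not measured.

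The event with the most reads in each gene mostly held a form that was used almost always. In HNRNPA1 the 147-nt exon was included at 97.4% to 98.5%, in HNRNPC the 161-nt exon at 97.9% to 99.1%, in HNRNPK the 129-nt exon at 95.5% to 100%, and in HNRNPL 2 exons of 183 nt in all at 98.2% to 100%. In HNRNPM 3 exons of 225 nt in all were included at 96.5% to 98.5%, and in HNRNPD 2 exons of 226 nt in all at 99.5% to 100%. In HNRNPA2B1 a pair of exons was included at 97.5% in normoxia siARNT A and at 100% in the 11 other libraries. The junction that skips this pair had 196 reads in normoxia siARNT A and 0 elsewhere. That which skips the HNRNPK exon had 152 in normoxia siControl A and 0 in normoxia siControl C. Both belong to the junctions described below with many reads in some libraries and 0 in others. The leading event of HNRNPU, a 5′ splice site shifted by 35 nt, was used at 2.04% in hypoxia siARNT A and not seen in the others. The 1 event tested in HNRNPF was a 78-nt intron, unspliced at 93.0% in hypoxia siARNT A and at 100% in the other libraries. HNRNPH1 differed: its leading event was a 60-nt coding exon included at 70.0 ± 1.43%, 70.3 ± 1.33%, 72.3 ± 1.28% and 70.6 ± 0.945% in normoxia siControl, hypoxia siControl, normoxia siARNT and hypoxia siARNT, with no call.

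Some hnRNP junctions were present with many reads in a few libraries and at 0 in others of the same group. Of 119 junctions of the 10 genes with at least 100 reads in some library, 26 (21.8%) had 0 reads in another, against 1242 of 25855 (4.8%) over all genes. HNRNPA2B1 held 14 and HNRNPA1 8 of the 26, and 25 of them were split in this way within at least 1 group. A 306-nt intron of HNRNPA2B1, for example, had 898 and 744 reads in hypoxia siControl A and B, 550 in normoxia siARNT B, and 0 in the 9 other libraries. A 2635-nt intron of HNRNPA1 had 541 reads in normoxia siARNT A and 0 in the 11 others. The junctions of the 3 called events of alternative 5′ or 3′ splice sites were not among the 26. The 827-nt intron of HNRNPA2B1, counted in the shares over all acceptors above, was among them.

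**Figure D5:**
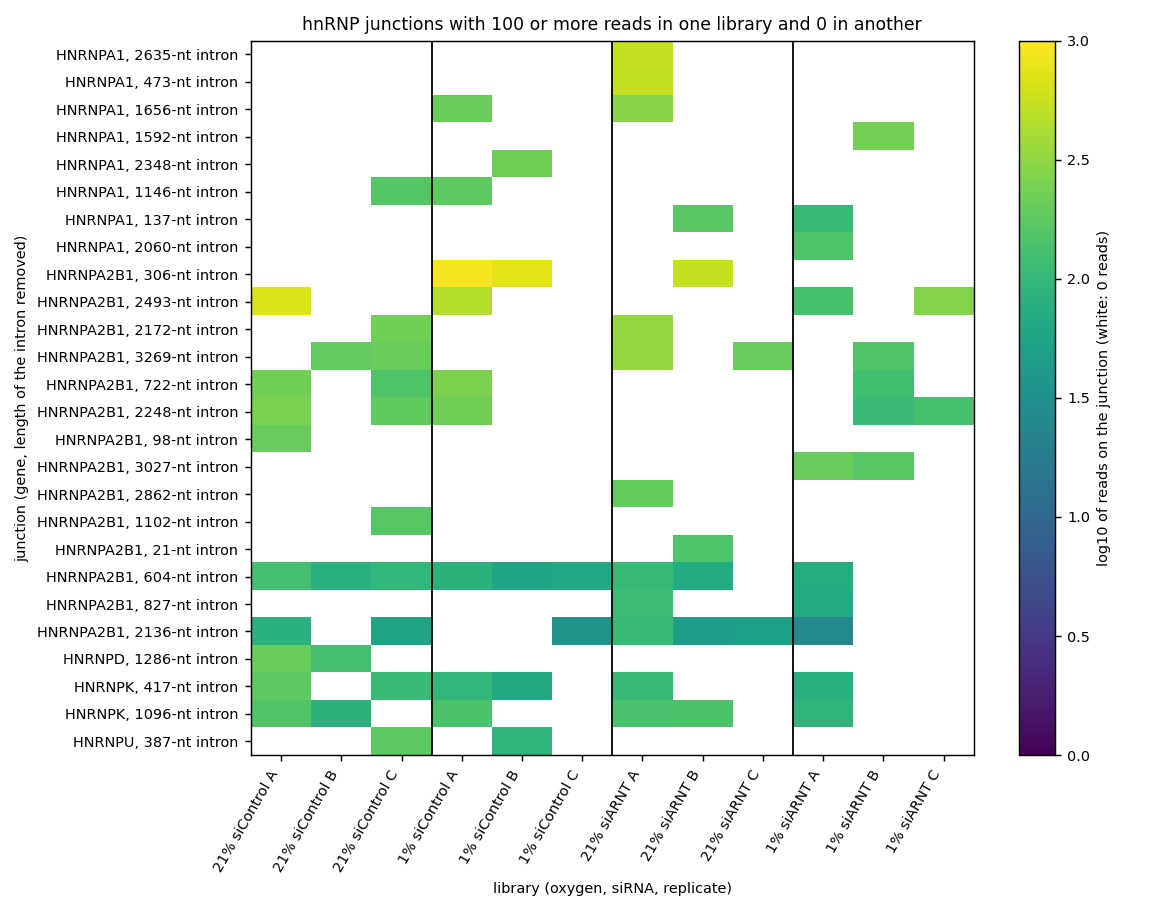
Reads on the 26 hnRNP junctions with at least 100 reads in one library and 0 in another (rows, by gene and length of the intron removed) in the 12 libraries (columns); colour gives log10 of the reads and white marks 0 reads. HNRNPA2B1 has 14 rows and HNRNPA1 8, and the filled cells do not follow the 4 groups.

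Finally, events were read in 7 genes with exons known to respond to hnRNPs: PKM, BCL2L1, RAC1, CASP9, MAX, MADD and FAS. Of the 36 events tested in them 1 was called, for siARNT in hypoxia, where 0.238% of all junction events tested were called. It lay in RAC1, a GTPase whose 57-nt exon gives the RAC1b form. This exon was included at 6.23%, 6.65% and 6.56% in normoxia siControl and 7.45%, 7.56% and 8.00% in hypoxia siControl. With siARNT it was at 4.85%, 4.45% and 4.40% in normoxia and at 4.30%, 5.35% and 5.99% in hypoxia. The siARNT libraries were below all siControl libraries. The log2 change of the odds with siARNT was -0.64 at 1% O2 (SE 0.111, adjusted p 0.0456). At 21% O2 it was -0.51 (SE 0.108, adjusted p 0.0929). The hypoxia call ended without any hypoxia siControl library and without hypoxia siARNT library A or B (adjusted p 0.115 to 0.172). It also ended with limma on log2 odds (adjusted p 0.456), on the upstream (0.369) or downstream junction alone (0.139), and in a fit to the 6 libraries (0.215). A trended negative binomial dispersion ended it too (0.95). Of 15 alternatives, 5 kept the call. In PKM, where hnRNPs A1 and A2B1 act on a pair of mutually exclusive exons, 6 events were tested and the smallest adjusted p in any comparison was 0.602.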

How the data were processed

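Poly(A) RNA of 12 wells of AsPC-1 cells was sequenced with a stranded kit. The submitters' processing notes name Trimmomatic, STAR 2.4.2a and the build GRCh38.p10. The deposited gene tables hold raw read counts per Ensembl gene. Of the reads of a library, 22.71% to 25.2% were in lines that name no gene and were left out. The splicing tables deposited by the authors hold, per event and library, junction read counts, the mean coverage (signal) of retained introns, and PSI as a fraction. PSI was recomputed from the counts and matched the deposited fractions within 0.0051 in 100% of values of 5 kinds of event and in 99.18% of retained introns. Event coordinates do not lie at the GRCh38 positions of the genes, and their build is not given in the sources used here. Sequences and segment positions come from GENCODE 29 on GRCh38.

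Gene counts were tested with edgeR 4.0.16 (quasi-likelihood, TMM scaling, filterByExpr, 4 group means fitted to 12 libraries) in R 4.3.3. CPM are TMM-scaled. Junction counts were tested with edgeR as log2 odds of both forms, with an intercept per library. Events needed a mean of at least 20 reads and at least 24 reads of the rarer form. No negative binomial dispersion was used in this fit, so the quasi-likelihood term alone carried the spread between libraries. With an estimated trended dispersion, calls over all junction events went from 110 to 0 for siARNT in normoxia and from 81 to 4 in hypoxia. Retained introns were tested with limma 3.58.1 on log2 of coverage over junction reads, each plus 0.5. p-values were adjusted by Benjamini-Hochberg over all features tested, and the scripts were tested on simulated data. DESeq2 1.42.0, other scalings, filters, a GC correction, a block for the replicate letter and leaving out each library were the alternatives. The members and lists were chosen with earlier results of these data known. All 10 genes were named. Events were named with values where they were called with at least 5 points of PSI or had the most reads of their gene. Other events were picked after their values were seen. Some items are not reported here.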

Additional observations from a re-analysis of the deposited data

Results flagged for a closer look

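The hypoxia change differed between siARNT and siControl, by the interaction term of the edgeR fit, in 1 of the 17 further hnRNP family genes and in 2 of 22 hnRNP pseudogenes tested, beside 4.69% of all genes. HNRNPAB stood at 243, 234 and 230 CPM in normoxia siControl and at 149, 158 and 143 CPM in hypoxia siControl. It stood at 261, 267 and 261 CPM in normoxia siARNT and at 213, 211 and 207 CPM in hypoxia siARNT, so hypoxia libraries were lower with either siRNA. The difference of the hypoxia changes was 0.33 (SE 0.0725, adjusted p 0.0278). It missed the threshold without 7 of the 12 libraries in turn: normoxia siControl A, B or C, normoxia siARNT A or C, hypoxia siControl A, or hypoxia siARNT B (adjusted p 0.0596 to 0.0843).

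HNRNPCP2, a pseudogene of HNRNPC, was low, at 2.08 to 4.63 CPM, and its difference was 0.94 (SE 0.211, adjusted p 0.0284). That call ended without normoxia siControl A, B or C, normoxia siARNT C, hypoxia siControl A or B, or hypoxia siARNT B (adjusted p 0.0531 to 0.0895). HNRNPA1P33, a pseudogene of HNRNPA1, was at 0.875 to 1.67 CPM with a difference of -1.01 (SE 0.226, adjusted p 0.0286). Its call held only when normoxia siARNT B or hypoxia siARNT C was the library left out (otherwise adjusted p 0.0507 to 0.087). Reads of such copies can come from the parent gene, which was not tested.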

How the results depend on the processing

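No called direction of the 10 genes turned in the alternatives run. Of 780 values of single hnRNP genes, 29 lost and 39 gained a call. For hypoxia in siControl the count of hnRNP genes called was 6 with total count scaling and 1 with no filter on low counts. It was 6 with only the 6 libraries compared. Over all genes these settings called 4686 of 16999, 3603 of 34964 and 5726 of 16269, against 4299 of 16999 in the fit used above. For siARNT in normoxia the hnRNP count was 5 with the replicate block. With a library left out it was 1 to 4 (1 without normoxia siControl C). Over all genes the block called 4732 of 16999 and the fit without that library 1571 of 17223, against 3431 of 16999. For siARNT in hypoxia the hnRNP count was 7 with a GC correction, with or without the replicate block. With a library left out it was 2 to 5 (2 without hypoxia siControl A or hypoxia siARNT B). Over all genes the GC correction called 7710 of 16535 (7921 with the block), against 4948 of 16999 in the fit used above. The fits without those libraries called 3537 of 17217 and 3674 of 17415. For the interaction the hnRNP count was 1 with DESeq2, total count scaling or the replicate block, and 0 to 1 with a library left out. It was 2 with a GC correction, with or without the block. Over all genes DESeq2, total count scaling and the block called 1047, 1495 and 960 of 16999, against 797. The GC correction called 2909 of 16535, and 3150 with the block. Total count scaling put the median of all genes at 0.104 (log2) for siARNT in hypoxia.

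Junction events depended on the model of the spread. For siARNT in normoxia the count was 0 with limma and 0 with a trended negative binomial dispersion, 3 with the upstream junction only, 3 with only 6 libraries and 1 to 3 with a library left out (1 without normoxia siControl A). Over all 34093 junction events limma called 6, the trended dispersion 0, the upstream junction only 68 and the fit to 6 libraries 77. For siARNT in hypoxia the count was 1 with a mean of at least 5 reads, 0 with limma, a trended dispersion, 1 junction only (upstream or downstream) or 6 libraries, and 0 to 1 with a library left out. Over all junction events limma called 20, the trended dispersion 4, the upstream junction only 17, the downstream junction only 44 and the fit to 6 libraries 34. The minimum of 5 reads called 78 of 48377. Hypoxia in siARNT gave 1 with 6 libraries, where 6 of all junction events were called. The HNRNPA2B1 skip of the 38-nt exon turned from -0.63 to 1.08 with the upstream junction only. The labels do not say whether a replicate letter marks a shared plate or day. Same-letter libraries correlated at -0.431 to 0.52, above the mean of other letters in 8 of 12 pairs, and not every pair was above 0.1. With the replicate block, event counts were 3 and 10 for hypoxia in siControl and siARNT, 16 and 11 for siARNT in normoxia and hypoxia, and 1 for the interaction. Over all junction events calls rose from 32 to 407 and from 7 to 250 for hypoxia. They rose from 110 to 579 and from 81 to 322 for siARNT in normoxia and hypoxia, and from 2 to 29 for the interaction. The trended dispersion and the minimum of 240 reads of the rarer form were chosen after seeing the data. The cause of these shifts was not tested.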
